A study of Drosophila melanogaster with 6 samples.

Results

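The genes described here act in asymmetric cell division, as in the sensory organ precursor, the founder cell of a fly bristle. They serve the cortical polarity of the dividing cell or the passing of fate determinants to its daughters, and *mira* and *insc* are best known from neuroblasts. They are *meru*, *baz*, *aPKC* and *insc* (cortical polarity), *mira*, *pon* and *numb* (fate determinants and their adaptors), and *pins*, *loco* and *Galphai* (G protein regulation). These 10 genes were chosen by name, with earlier results of these data known, from the 10844 genes named on the array. They were represented by 15 of the 13966 probe sets that are not controls, 2 each for *meru*, *mira*, *pins*, *loco* and *Galphai* and 1 each for the other 5 genes. A further probe set shared by *pins* and *hoip* carried several symbols and was not used.

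Cells of *Drosophila melanogaster* wing imaginal discs, the larval precursors of the wing and dorsal thorax of the adult, were sorted by fluorescence and compared on 6 Affymetrix arrays. The GFP-positive group (3 arrays) held all disc cells brighter than the background set with *w1118* discs, and the GFP-negative group (3 arrays) held cells below it. Both groups came from late third-instar larvae carrying the same E(spl)m4-GFP reporter, which marks proneural clusters, and each sample pooled many discs dissociated with trypsin. A proneural cluster holds precursors and neighbours that remain epidermal, so the GFP-positive group is a mixture of cells, and in such bulk samples a smaller share of a cell type and less RNA per cell cannot be told apart. Whether the samples of a group were dissected separately is not stated, so the spread behind the p-values may be technical.

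Precursors divide asymmetrically. A complex of Bazooka (Par-3), Par-6 and the kinase aPKC occupies a domain of the cortex, excludes Numb and its adaptor Pon from it, and so directs them to the opposite side and into a single daughter, where Numb restrains Notch. Galphai and the GoLoco protein Pins anchor the spindle machinery so that the division plane separates these domains. Meru, a scaffold of the RASSF family, connects planar polarity of the epithelium to Bazooka in the precursor. Miranda and Inscuteable are best known from neuroblasts, the dividing stem cells of the fly brain, where Miranda carries Prospero, Brat and Staufen, and Inscuteable joins the Bazooka complex to Pins.

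The arrays called between 4321 and 4541 probe sets Present in GFP-positive cells, against between 4382 and 5039 in GFP-negative cells. Of 8 precursor markers (*sens*, *ase*, *neur*, *phyl*, *sc*, *ac*, *insv* and *cato*) 5 were tested, and 3 rose (*phyl*, *insv* and *cato*), or all 5 with replicate number as a block. Of all tested probe sets 1.25% rose and 1.74% fell, and with that block 2.16% rose. Each of the 3 had at most 1 Present call among the GFP-negative arrays, so its GFP-positive calls kept it for testing. Such selection tilts the count towards a rise. *sens* (mean 88.7 against 12.0) and *ase* (47.2 against 31.4, with overlapping groups) were Present on no array. *ac* (172.3 against 42.7) was Present on 1 GFP-positive array. These markers were not tested. Of 7 markers of disc epithelium on the array, *vg*, *ap*, *pdm2* and *grh* were Present on all 6 arrays, while *nub*, *Dll* and *shg* were Present on none. Of the 6 markers of adult muscle precursors on the array, 4 were tested and *Him* and *htl* fell, both kept for testing by their GFP-negative calls. *if* (log2 difference -0.75) and *sns* (0.53) did not pass. *sns* went the other way, with 711.5, 718.2 and 855.6 on the GFP-positive arrays, against 573.8, 398.1 and 623.7 on the GFP-negative arrays. *twi* (mean 51.3 against 557.8) and *zfh1* (70.7 against 312.0) were Present on no array and were not tested. The 6 signals summed to between 1011 and 1099 on the GFP-positive arrays, mostly from *sns*, with 1 or 2 Present on each. The sum lay between 2392 and 2826 on the GFP-negative arrays, with 4 Present on each. The part of muscle precursors in the results below was not tested. Neither *elav*, *nSyb* nor *brp*, the neuronal markers, was Present on any array, and neither tracheal marker (*btl*, *vvl*) was, while 0 or 1 of the 5 hemocyte markers on the array was Present on each array.

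Of the 10 genes, 3 rose in GFP-positive cells (*meru*, *mira* and *loco*), 0 fell, 4 were tested and did not pass (*baz*, *numb*, *pins* and *Galphai*), and 3 were Present on no array and were not tested (*aPKC*, *insc* and *pon*). The test was limma on log2(signal + 16) with a Benjamini-Hochberg adjusted p threshold of 0.05, over the 4943 probe sets that were called Present on 2 or more arrays of either group. By it 2.99% of all tested probe sets changed. GFP-positive cells had the higher signal for 62 of these (1.25% of those tested) and the lower signal for 86 (1.74%). The 3 that rose entered the test through the GFP-positive arrays alone, since no GFP-negative array called them Present, which favours a difference, so their count is a description. The genes were also chosen with earlier results of these data known. The 4 that did not pass were Present in both groups. With median scaling in place of the deposited scaling, which moved the median difference of all tested probe sets by -0.113, the array-wide split was 54 higher and 119 lower, and with replicate number as a block, by which the same 3 genes were called, it was 107 higher (2.16%) and 150 lower (5.2% in either direction).

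**Figure D1:**
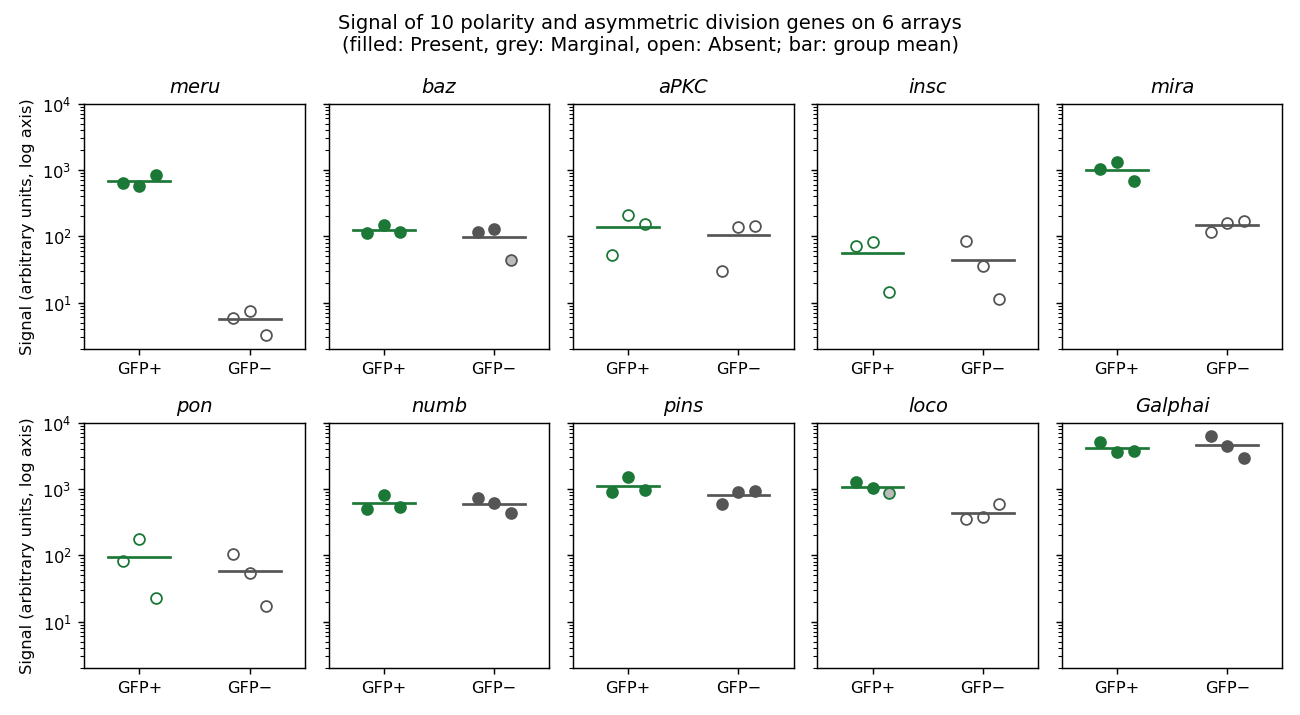
Signal (arbitrary units, log axis) of the probe set standing for each of the 10 genes, with 3 GFP-positive (left) and 3 GFP-negative (right) arrays. Filled points were called Present, grey Marginal and open Absent, and bars are group means. The groups separate for *meru*, *mira* and *loco* and overlap for the other 7 genes.

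Among the polarity genes, *meru* had signals of 631.7, 567.2 and 831.8 on the GFP-positive arrays, against 5.9, 7.6 and 3.3 on the GFP-negative arrays (probe set 148828_at). It was Present on all 3 GFP-positive arrays and on no GFP-negative array, where the detection p-values lay between 0.972 and 0.997. It averaged 676.9 ± 138 in GFP-positive cells, against 5.6 ± 2.17 in GFP-negative cells (SD, n = 3 each). The difference passed the test (limma adjusted p = 2.05e-05). *meru* was kept for testing by its GFP-positive calls alone, and the limma fit with no filter gave an adjusted p of 0.000543. The GFP-negative signals lay below the lowest signal called Present on any array (29.4), so the fold was not measured. Set against the lowest Present signal of each GFP-negative array, *meru* was 14.1-fold higher in GFP-positive cells. That limit is taken over all probe sets and need not be the limit of this one, and the pseudocount of 16 enters the value. The fitted log2 difference of 4.99 (SE 0.306) is set in part by the pseudocount of 16 and is no measure of size, since it was 6.72 with a pseudocount of 1 and 3.40 with 64.

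The files give the array lot and the hybridization day, and *meru* was higher in GFP-positive cells in every comparison of arrays that share one of them. With the GFP-negative signals under the detection limit, these differences show a direction and not a size. The log2 difference was 4.83 within the lot of GFP-positive replicate 1 and GFP-negative replicates 1 and 2, and 5.46 within the lot of both replicates 3. On day 1, which held the pair of replicates 1, it was 4.89, and over the 4 arrays of day 2 it was 5.04. Leaving out any 1 array gave between 4.84 and 5.11, with adjusted p-values of at most 0.00103.

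The other *meru* probe set (148829_at) was Absent on all 6 arrays. Its signals were 21.9, 35.3 and 62.0 in GFP-positive cells, against 11.2, 10.6 and 37.2 in GFP-negative cells. The groups overlapped, because GFP-negative replicate 3 lay above GFP-positive replicates 1 and 2 (exact permutation p = 0.3, two-sided, where 3 arrays against 3 cannot give less than 0.1). RefSeq lists 3 transcripts for *meru*, and the sources used here do not say which of them either probe set reads.

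*baz*, the Par-3 scaffold that Meru binds, had signals of 113.0, 149.3 and 116.0 in GFP-positive cells, against 116.8, 128.1 and 43.4 in GFP-negative cells. It was Present on 5 of the 6 arrays and Marginal on GFP-negative replicate 3, its dimmest array. The groups overlapped and the log2 difference was 0.44 (95% interval -0.43 to 1.30, adjusted p = 0.679), so the data allow anything from a fall to 0.743 of the GFP-negative level to a 2.46-fold rise. It was -0.04 in the day 1 pair and 1.15 in the lot of replicates 3.

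*aPKC*, the kinase of the same complex, was Absent on all 6 arrays, with signals of 52.3, 212.3 and 153.8 in GFP-positive cells, against 29.7, 136.5 and 144.6 in GFP-negative cells. Within each group its replicate 1 was the dimmest array, and the groups overlapped (exact permutation p = 0.5, two-sided). *insc*, the adaptor between Bazooka and Pins, was likewise Absent throughout, with 72.0, 81.4 and 14.3 in GFP-positive cells, against 84.3, 35.1 and 11.3 in GFP-negative cells. Its replicate 3 was the dimmest in both groups, and the groups overlapped (exact permutation p = 0.8, two-sided). Neither gene's level was measured above background, so a change below the detection limit would not be seen here.

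Among the determinants, *mira*, the adaptor that localises Prospero, Brat and Staufen in neuroblasts, had signals of 1052.3, 1306.2 and 691.5 in GFP-positive cells, against 117.0, 157.3 and 168.4 in GFP-negative cells (probe set 142533_at). It was Present on all 3 GFP-positive arrays and Absent on all 3 GFP-negative arrays. The lowest GFP-positive signal was above the highest GFP-negative one, as in 9.43% of all tested probe sets. It averaged 1017 ± 309 in GFP-positive cells, against 147.6 ± 27.0 in GFP-negative cells (SD, n = 3 each). The fitted difference was 6.17-fold, with a 95% interval of 4.01-fold to 9.51-fold (log2 2.63, SE 0.28, limma adjusted p = 0.000841). The GFP-negative level was not above background, so this fold can be too small, and the interval covers the spread between arrays only. *mira* was kept for testing by its GFP-positive calls alone, and the limma fit with no filter gave an adjusted p of 0.00579.

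The log2 difference of *mira* was 3.01 in the day 1 pair and 2.81 in the lot of 3 arrays, but 1.94 in the lot of replicates 3, where the dimmest GFP-positive array met the brightest GFP-negative array. The call held whichever array was left out, with log2 differences between 2.42 and 2.88. The second *mira* probe set (141945_at) was Absent on all 6 arrays, with 155.7, 100.0 and 93.4 in GFP-positive cells, against 20.8, 127.1 and 188.2 in GFP-negative cells. The GFP-negative signals spanned the whole GFP-positive range.

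*numb*, which encodes the Notch inhibitor inherited by a single daughter, was Present on all 6 arrays, and its groups overlapped. Its signals were 494.7, 817.1 and 542.3 in GFP-positive cells, against 727.2, 622.3 and 439.1 in GFP-negative cells. The log2 difference was 0.05 (SE 0.273, adjusted p = 0.959), and its 95% interval of -0.56 to 0.65 leaves out a rise beyond 1.57-fold or a fall below 0.677 of the GFP-negative level. The sign was negative in the day 1 pair (-0.54) and positive over the day 2 arrays (0.34).

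*pon*, the adaptor that helps Numb reach its side of the cortex, was Absent on all 6 arrays. Its signals were 81.6, 176.1 and 22.3 in GFP-positive cells, against 103.5, 54.0 and 17.0 in GFP-negative cells, and replicate 3 was the dimmest array in each group. The groups overlapped (exact permutation p = 0.7, two-sided), and the gene's level was not measured above background.

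Among the G protein genes, *loco*, which encodes a protein with an RGS domain and GoLoco motifs that acts on Galphai, had signals of 1278.2, 1026.7 and 861.6 in GFP-positive cells, against 355.1, 375.8 and 587.5 in GFP-negative cells (probe set 152188_at). The groups did not overlap, as in 9.43% of all tested probe sets in this direction, and the nearest arrays were the replicates 3 of each group. The calls were near their limit. GFP-positive replicates 1 and 2 were Present (detection p of 0.024 and 0.032), GFP-positive replicate 3 was Marginal (0.0421) and no GFP-negative array was Present (0.0701 to 0.15).

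*loco* averaged 1056 ± 210 in GFP-positive cells, against 439.5 ± 129 in GFP-negative cells (SD, n = 3 each). The fitted difference was 2.38-fold, with a 95% interval of 1.59-fold to 3.56-fold (log2 1.25, SE 0.261, limma adjusted p = 0.0297), against a GFP-negative level that was likewise not above background. This call rested on all arrays together. When a GFP-positive array was left out, the adjusted p was 0.1304 without replicate 1, 0.0824 without replicate 2 and 0.0592 without replicate 3. When a GFP-negative array was left out, it was 0.0594 without replicate 1, 0.1505 without replicate 2 and, still past the threshold, 0.0219 without replicate 3. A block for lot, in which GFP-positive replicate 2 carries no weight because it was alone in its lot, gave 0.0871. The fit with no filter gave 0.081 and the arrays of day 2 alone 0.1743. The log2 difference was positive in each batch, with 1.80 in the day 1 pair, 0.98 over day 2, 1.76 in the lot of 3 arrays and 0.54 in the lot of replicates 3.

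The second *loco* probe set (150386_at) did not separate the groups. It was Absent on all 6 arrays, with signals of 386.2, 451.6 and 503.6 in GFP-positive cells, against 361.4, 364.4 and 633.3 in GFP-negative cells. In a fit with no filter its log2 difference was 0.02 (95% interval -0.61 to 0.65), below the interval of the first probe set. RefSeq lists 5 transcripts for *loco*.

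*loco* is also known from glia. The glial marker *repo* had signals of 141.5, 160.0 and 72.9 in GFP-positive cells, against 135.3, 132.9 and 115.3 in GFP-negative cells (log2 -0.09, adjusted p = 0.937). *gcm*, the transcription factor that starts glial fate, had 116.1, 251.2 and 100.0 in GFP-positive cells, against 5.9, 31.6 and 86.4 in GFP-negative cells. It was Present on GFP-positive replicate 2 alone, so it missed the filter (log2 1.75, unadjusted p = 0.0162 and adjusted p = 0.34 in a limma fit with no filter). Its groups did not overlap, as in 14.3% of the probe sets that missed the filter, in either direction. Between 1 and 3 of the 6 glial markers (*repo*, *gcm*, *moody*, *wrapper*, *Gli* and *nrv2*) were Present on each GFP-positive array, against 2 or 3 on each GFP-negative array. Their summed signal lay between 807.0 and 1479 in GFP-positive cells, against between 1056 and 1320 in GFP-negative cells, and 0 of the 3 tested passed in either direction, with 1 (*nrv2*, log2 -0.71) at an unadjusted p under 0.05 in limma. The summed signal of the 8 precursor markers lay between 2759 and 3711 in GFP-positive cells, against between 562.4 and 772.4 in GFP-negative cells. *phyl* was the brightest of them on each GFP-positive array (1439.4, 1428.7 and 1094.7). Of the 8 markers, 5 or 6 were Present on each GFP-positive array, against between 1 and 3 on each GFP-negative array. The part of precursor or glial cells in the differences of *meru*, *mira* and *loco* was not tested.

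*pins*, which encodes the GoLoco partner of Galphai, was Present on all 6 arrays by probe set 151697_at. Its signals were 901.5, 1487.0 and 963.3 in GFP-positive cells, against 581.5, 897.4 and 914.8 in GFP-negative cells. GFP-positive replicate 2 stood above the rest and GFP-negative replicate 1 below, and the groups overlapped only through GFP-positive replicate 1 and GFP-negative replicate 3. The log2 difference was 0.47 (95% interval -0.14 to 1.08, adjusted p = 0.484). It was 0.62, 0.72 and 0.07 between arrays of equal replicate number, which the labels do not state to be pairs. The second *pins* probe set (142815_at), Absent throughout, had 812.9, 604.4 and 677.5 in GFP-positive cells, against 268.6, 515.7 and 745.1 in GFP-negative cells, with overlapping groups.

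*Galphai*, the G protein subunit bound by Pins and regulated by Loco, was Present on all 6 arrays and did not separate the groups. Its signals were 5169.2, 3551.0 and 3788.7 in GFP-positive cells, against 6311.3, 4505.3 and 2933.3 in GFP-negative cells, and the GFP-negative arrays spanned the whole GFP-positive range. The log2 difference was -0.09 (95% interval -0.74 to 0.56, adjusted p = 0.927). Its second probe set (141987_at) was Present on replicate 1 of each group and on no other array, with 457.4 in GFP-positive and 759.4 in GFP-negative replicate 1, while the other 4 arrays lay between 78.4 and 190.0.

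**Figure D2:**
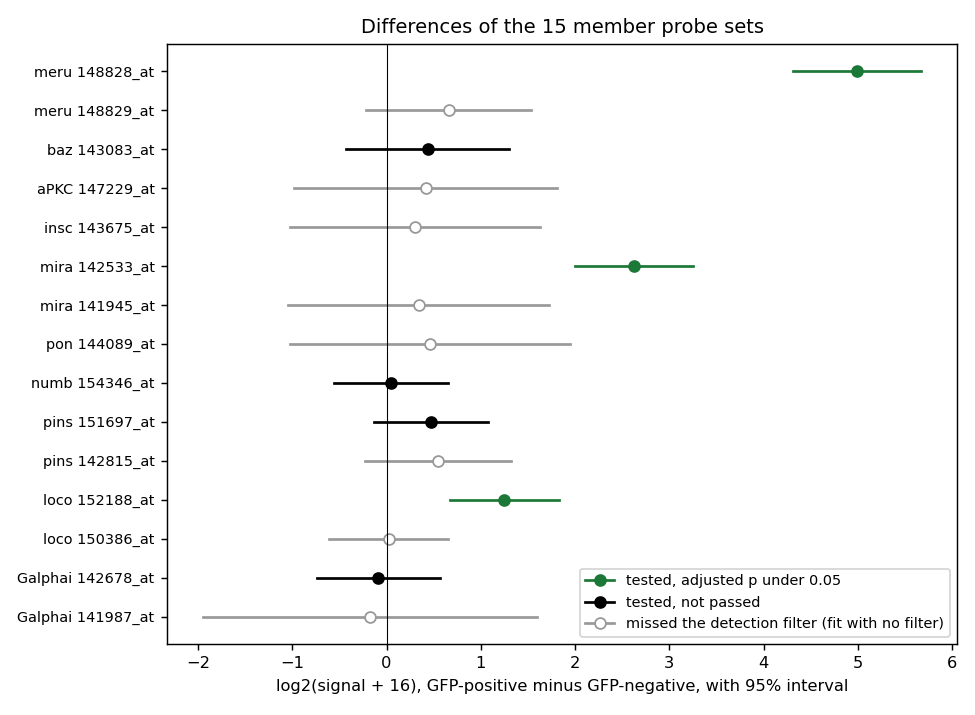
Difference of log2(signal + 16), GFP-positive minus GFP-negative, for the 15 probe sets, with points at the estimate and lines over the 95% interval. The first probe sets of *meru*, *mira* and *loco* lie above 0 with their whole intervals, while the intervals of the other 12 include 0; the 8 open points missed the detection filter and come from the fit with no filter.

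Where a gene had 2 probe sets, its dimmer one missed the detection filter in all 5 cases, so no call on these genes rests on agreement between probe sets. The median difference of all 4943 tested probe sets was -0.01, and the *numb* and *Galphai* values lie close to it.

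**Figure D3:**
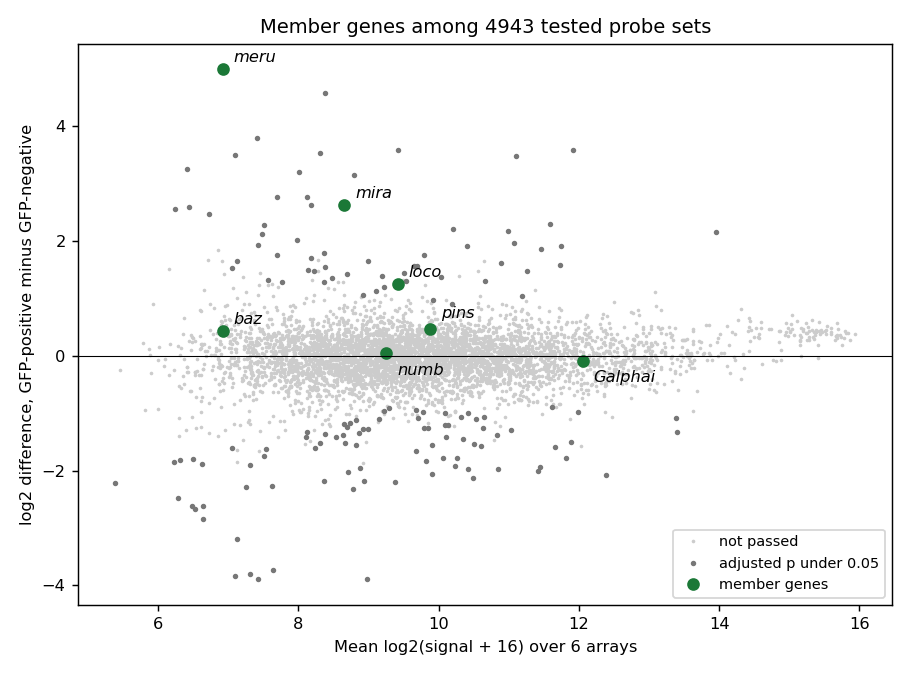
Log2 difference (GFP-positive minus GFP-negative) against mean log2(signal + 16) over 6 arrays for 4943 tested probe sets, dark where the adjusted p was under 0.05. The 7 tested genes of the group are green; *meru*, whose GFP-negative level is below detection, *mira* and *loco* lie among the called probe sets, and *baz*, *numb*, *pins* and *Galphai* lie in the cloud around 0.

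The probe sets most like those of the called genes were named by the 3 highest Pearson correlations of log2(signal + 16) over the 6 arrays, which mostly describe the gap between the groups. For *meru* these were *Ect3*, a beta-galactosidase (r = 0.999, log2 difference 3.48), *Ypel* (r = 0.999, 1.48) and the precursor corepressor *insv* (r = 0.996, 2.76). For *mira* they were the bHLH repressor *E(spl)mdelta-HLH* (r = 0.996, 2.17), *qua*, a villin-like actin-binding protein (r = 0.996, 3.26), and *aay*, a phosphoserine phosphatase (r = 0.995, 1.79). For *loco* they were *CG11601* (r = 0.996, 0.63), *Targ3* (r = 0.985, 0.75) and the tubby-family gene *ktub* (r = 0.982, 3.20). *CG11601* and *Targ3* did not pass the test themselves (limma adjusted p of 0.179 and 0.125).

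The partners of these proteins were read from 5 lists of 64 genes, of which 46 had a probe set and 32 were tested. In limma 0 of the 32 passed in either direction, and 2 had an unadjusted p under 0.05 (*neur* and *ric8a*), as had 14% of all tested probe sets. Their median log2 difference was -0.04, against -0.01 over all tested probe sets, and 13 of the 32 were positive, against 48.7% of all tested probe sets.

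Of the apical and cortical partners, 8 were tested and 0 passed (0 at an unadjusted p under 0.05 in limma, median -0.08). Their differences ran from -0.46 for *l(2)gl*, a substrate of aPKC that restricts the Par complex to the apical cortex (adjusted p = 0.634), to 0.50 for *scrib*, a lateral scaffold (adjusted p = 0.630). *par-6*, the third subunit of the complex of Bazooka and aPKC, had signals of 133.9 ± 37.0 in GFP-positive cells, against 163.7 ± 33.8 in GFP-negative cells (SD, n = 3 each, limma adjusted p = 0.75).

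Of the genes of G proteins, spindle orientation and mitotic kinases, 12 were tested and 0 passed (1 at an unadjusted p under 0.05 in limma, median -0.08). The highest was *Dlic*, a dynein light intermediate chain (log2 0.53, adjusted p = 0.511). The lowest was *ric8a*, a chaperone and exchange factor of G protein alpha subunits, with 51.5, 98.9 and 27.3 in GFP-positive cells, against 107.5, 123.4 and 131.4 in GFP-negative cells. No GFP-positive array called *ric8a* Present and all 3 GFP-negative arrays did, and the groups did not overlap, as in 20.8% of all tested probe sets in either direction (log2 -0.97, SE 0.402, adjusted p = 0.303).

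Of the determinants and Notch trafficking genes, 9 were tested and 0 passed (1 at an unadjusted p under 0.05 in limma, median 0.16). The highest was *neur*, the ubiquitin ligase that activates Notch ligands in the daughter that inherits it, with 121.3, 300.6 and 131.5 in GFP-positive cells, against 52.5, 45.1 and 32.2 in GFP-negative cells. The groups did not overlap, as in 9.43% of all tested probe sets in this direction. The log2 difference of *neur* was 1.66 (SE 0.396, limma adjusted p = 0.0554), a call gained with replicate number as a block (adjusted p = 0.016). The second *neur* probe set (151717_s_at) was Absent on every array, and its groups overlapped. Its signals were 283.1, 34.0 and 57.0 in GFP-positive cells, against 28.6, 88.3 and 106.0 in GFP-negative cells. In a fit with no filter its log2 difference was 0.31. The lowest was *nuf*, an effector of recycling endosomes (-0.30, adjusted p = 0.774). Of the Miranda cargoes, *brat* had 9282 ± 3283 in GFP-positive cells, against 7876 ± 247 in GFP-negative cells (SD, n = 3 each, limma adjusted p = 0.802) and *stau* had 1236 ± 566 in GFP-positive cells, against 843.0 ± 179 in GFP-negative cells (adjusted p = 0.554).

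Of the planar polarity genes 2 were tested and 0 passed (0 at an unadjusted p under 0.05 in limma). *dgo*, a component of the distal complex, had 916.3, 1197.4 and 1062.6 in GFP-positive cells, against 701.9, 809.5 and 810.7 in GFP-negative cells (log2 0.44, SE 0.21, adjusted p = 0.402). Its groups did not overlap, as in 9.43% of all tested probe sets in this direction. *Vang*, of the proximal complex, had a log2 difference of -0.21 (adjusted p = 0.774). The tested relative of *meru* in the RASSF family, *RASSF8*, was Present on all 6 arrays, with 364.0 ± 146 in GFP-positive cells, against 469.2 ± 21.0 in GFP-negative cells (SD, n = 3 each, log2 -0.43, limma adjusted p = 0.587), while *Rassf* was Present on none. The second *RASSF8* probe set (142128_at), Absent on all 6 arrays, had 0.42 in a fit with no filter.

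**Figure D4:**
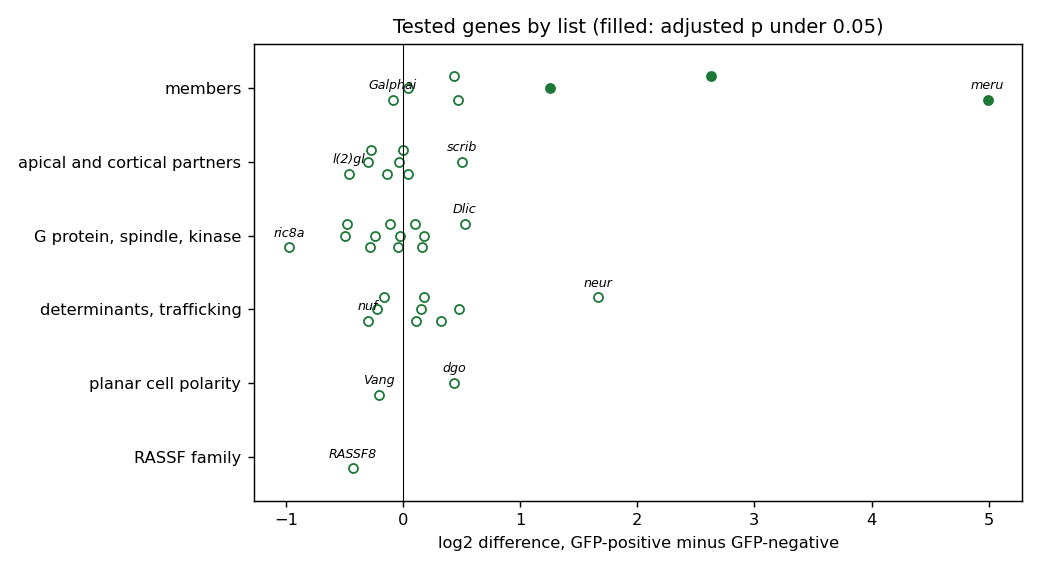
Log2 difference (GFP-positive minus GFP-negative) of each tested gene, by list, with 1 point for each gene (points are set apart vertically for legibility) and filled points for an adjusted p under 0.05. The filled points are *meru*, *mira* and *loco*; every gene of the 5 partner lists is open, and *neur* at 1.66 lies farthest right among them.

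**Figure D5:**
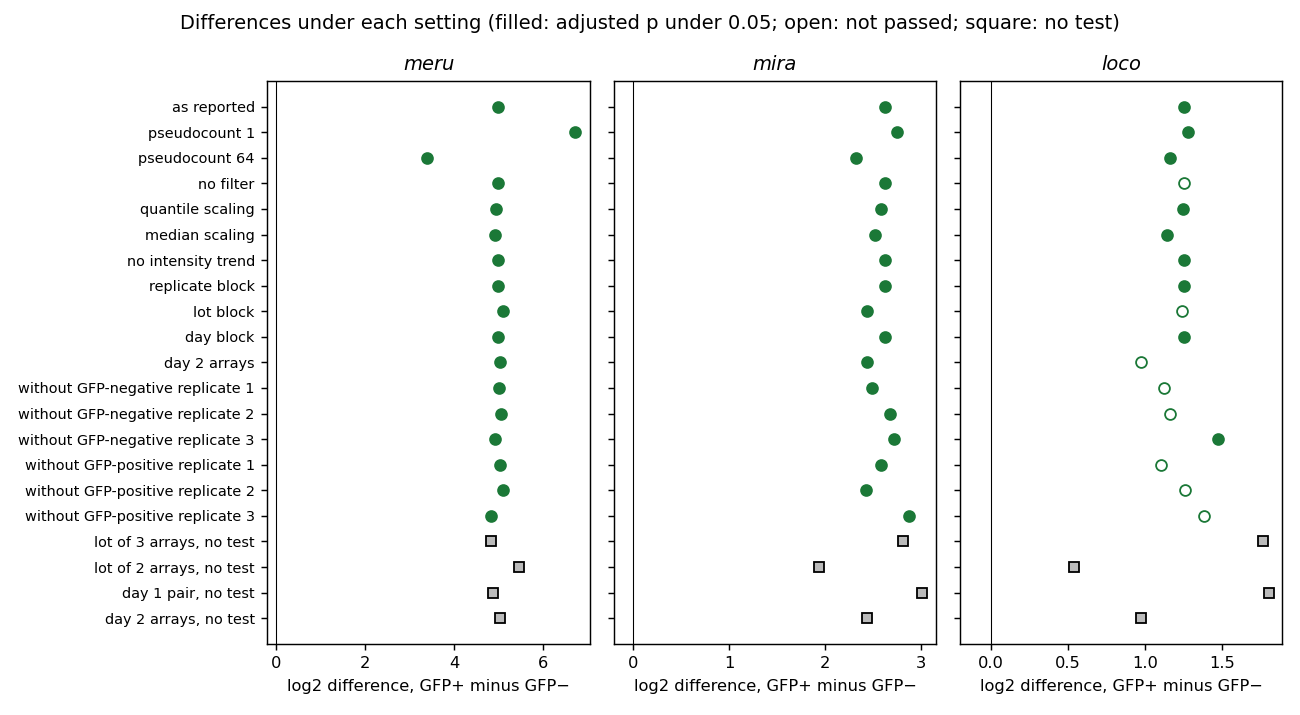
Log2 difference (GFP-positive minus GFP-negative) of *meru*, *mira* and *loco* under each setting, filled where the adjusted p was under 0.05, open where it was not, and square for batches without a test. All points lie above 0; those of *meru* and *mira* are filled wherever tested, and those of *loco* are open in 8 settings.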

How the data were processed

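The authors deposited a linear intensity per probe set, made by the Affymetrix statistical algorithm and scaled on each array to a target of 500, per the file headers. Calls (Present, Marginal or Absent) come from the deposited detection p-values, cut at 0.04 and 0.06, and a Tau of 0.015, as the headers state. The deposited series table held the same intensity for all 14010 probe sets of each array, without centring, with medians between 125.35 and 151.6. The number of arrays, 3 per group, limits precision. How the RNA was labelled is not given in the sources used here.

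Symbols came from the platform annotation (1 symbol for 12443 probe sets, several for 327, none for 1196), and 12394 were updated through Entrez numbers with RefSeq. The brightest probe set stood for a gene. Signals were transformed as log2(signal + 16), probe sets Present on at least 2 of 3 arrays of a group were kept, and groups were compared with limma 3.58.1 in R 4.3.3 (two-sided, with an intensity trend and no term beside the group). The fit was run on simulated data with independent noise and no lot, day or replicate structure, so that check does not cover batches. The 14.1-fold of *meru* sets GFP-positive signals against the GFP-negative signal or, where that is lower, the array's lowest Present signal over all probe sets. These limits were 31.4 to 34.3 on the GFP-negative arrays, and the pseudocount was added to both sides. Deviations from the group means correlated at 0.402, 0.102 and 0.122 in arrays of equal number, which the submitters' titles give, and between -0.353 and 0.221 in arrays of unequal number, where GFP-positive replicate 3 with GFP-negative replicate 2 (0.221) was above the pairs of replicates 2 and 3. The labels do not state that equal numbers pair the samples. The replicates 1 of the 2 groups share lot and day, as do the replicates 3, so these correlations cannot tell pairing from batch. The fit as reported did not pair the samples, and replicate number was a block in an alternative only.

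The genes and lists were chosen with earlier results of these data known. The text names all member genes, and of each partner list the called genes and the highest and lowest tested difference; *par-6*, *brat*, *stau* and the untested genes were added after their values were seen. Of the listed partners, 18 had no probe set with their symbol and were not analysed here.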

Additional observations from a re-analysis of the deposited data

How the results depend on the processing

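The calls of *meru* and *mira* held under every alternative in which they were tested. That of *loco* was lost under 8, given above, and held under both pseudocounts, both scalings, without an intensity trend and with replicate or day as a block. With probe sets Present on all 6 arrays only, 3 of the 10 genes were tested and 0 passed in limma, since that filter removes *meru*, *mira* and *loco*. Leaving out an array gave between 2 and 3 called genes. The sign of *numb* turned under median scaling (-0.066), under the lot block (-0.12) and when an array was left out (-0.17 to 0.20), and that of *Galphai* under the lot block (0.13), over the day 2 arrays (0.0127) and when an array was left out (-0.37 to 0.18), all without a call.

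The count of partner genes was 1 (*neur*) without an intensity trend (adjusted p = 0.0288), with replicate number as a block and with day as a block (0.032), and 0 whichever array was left out. The replicate block changed no other call of these genes. Over the array, 148 probe sets were called, 97 with no filter, 50 with those Present on all 6 arrays, 257 with replicate number as a block, 229 with day as a block, 76 in the day 2 arrays and between 69 and 153 with an array left out. Genes Absent on all arrays, such as *aPKC*, *insc* and *pon*, carry no measured level above background.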

Other observations

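Of the 14 partner genes that had a probe set but missed the detection filter, 4 had groups that did not overlap (*dlg1*, *mud*, *pros* and *stan*), as did 14.3% of the 9023 probe sets that missed it. They are named because of their values, all were Absent on all 6 arrays, and none passed in a limma fit with no filter, though all 4 had an unadjusted p under 0.05 there. *pros*, the transcription factor that Miranda carries in neuroblasts, had 160.9, 413.7 and 240.0 in GFP-positive cells, against 23.4, 14.4 and 90.2 in GFP-negative cells (log2 2.42, adjusted p = 0.108). *stan*, the cadherin of planar polarity, had 43.8, 41.9 and 40.7 in GFP-positive cells, against 16, 19.6 and 13.6 in GFP-negative cells (0.85, adjusted p = 0.266). *mud*, the spindle protein that Pins anchors, ran the other way, with 519.1, 514.6 and 372.8 in GFP-positive cells, against 994.3, 594.5 and 788.8 in GFP-negative cells (-0.72, adjusted p = 0.364). *dlg1*, a lateral scaffold, had 25.8, 24.5 and 24.4 in GFP-positive cells, against 69.5, 113.1 and 33.1 in GFP-negative cells (-0.995, adjusted p = 0.455).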
